A study of Mus musculus with 12 samples.

Results

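The genes described here code for receptors with which cells of the lung recognise microbial products, debris and modified proteins: the C-type lectin receptors, the Toll-like receptors, and a set of scavenger and endocytic receptors. They were chosen by name. Every gene with a symbol of the form Clec plus a digit or Tlr plus a digit in the array's annotation was taken, and Msr1, Marco, Cd163, Mrc1 and Siglec1 were added. This gave 42 of the 18194 genes measured, of which 26 were Clec genes and 11 were Tlr genes. The 8 other protein-coding genes of both families in the RefSeq gene table (Clec12a, Clec2f, Clec3a, Clec4a1, Clec4a4, Clec4b2, Clec9a and Tlr11) were not analysed here. C57BL/6 mice had received saline or bleomycin, a DNA-damaging drug that causes lung injury and fibrosis, by the endotracheal route. Their lungs had been perfused with PBS and taken whole at day 21. The mice were wild type or FIZZ2 knockout. FIZZ2 is the secreted protein RELM-beta, encoded by Retnlb. The 4 groups (wild type saline, wild type bleomycin, knockout saline and knockout bleomycin) had 3 arrays each, 1 per sample. The labels say neither how the allele was made nor whether the knockout and wild type mice were littermates, and they give no age or sex. Nor do they say that the 3 samples of a group came from separate animals, so the p-values below reflect only the spread between samples, which may be technical.

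Toll-like receptors bind conserved microbial molecules, at the cell surface (bacterial lipids and flagellin) or in endosomes (nucleic acids), and signal through adaptors such as MyD88. C-type lectin receptors of myeloid cells bind sugars and lipids of fungi, bacteria and damaged cells. Some carry their own signalling motif, and others pair with the adaptors FcR-gamma (Fcer1g) or DAP12 (Tyrobp), upstream of the kinase Syk. Scavenger and endocytic receptors take up modified lipoproteins, glycoproteins, haemoglobin complexes and particles. In lung, many of these receptors are known from macrophages, while a few of the lectins are known from endothelium or platelets.

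Promoter sequences are shown first for 5 genes whose rise with bleomycin was smaller in knockout lungs (values below). Of the 42 genes, 34 had an entry in a RefSeq promoter table (build GRCm38.p6). The 250 bases before each start were searched on both strands for GAGGAAG, a purine-rich sequence of the type bound by PU.1, a transcription factor of myeloid cells. The bases are written 5′ to 3′ in the direction of the gene, and capitals mark GAGGAAG or its reverse complement CTTCCTC. Clec5a (chr6:40585806-40586055, minus strand) and Mrc1 (chr2:14229164-14229413, plus strand) hold 2 matches each. Clec4d (chr6:123261857-123262106, plus strand) and Tlr13 (chrX:106143025-106143274, plus strand) hold 1 each. Clec7a (chr6:129472780-129473029, minus strand), shown for comparison as another gene with a smaller rise in knockout lungs, holds none.
Clec5a: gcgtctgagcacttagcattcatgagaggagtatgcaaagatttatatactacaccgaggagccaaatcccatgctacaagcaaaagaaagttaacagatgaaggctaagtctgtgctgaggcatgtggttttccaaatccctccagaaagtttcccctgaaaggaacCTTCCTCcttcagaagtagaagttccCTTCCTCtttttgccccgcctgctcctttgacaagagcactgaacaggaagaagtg
Mrc1: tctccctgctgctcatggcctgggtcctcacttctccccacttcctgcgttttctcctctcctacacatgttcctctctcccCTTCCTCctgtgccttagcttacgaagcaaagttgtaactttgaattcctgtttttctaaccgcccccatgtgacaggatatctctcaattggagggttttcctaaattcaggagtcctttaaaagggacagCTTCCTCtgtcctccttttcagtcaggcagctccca
Clec4d: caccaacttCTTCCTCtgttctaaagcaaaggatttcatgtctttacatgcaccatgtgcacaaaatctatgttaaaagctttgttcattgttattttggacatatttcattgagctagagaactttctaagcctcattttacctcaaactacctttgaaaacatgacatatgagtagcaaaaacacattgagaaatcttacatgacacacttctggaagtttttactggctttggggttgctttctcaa
Tlr13: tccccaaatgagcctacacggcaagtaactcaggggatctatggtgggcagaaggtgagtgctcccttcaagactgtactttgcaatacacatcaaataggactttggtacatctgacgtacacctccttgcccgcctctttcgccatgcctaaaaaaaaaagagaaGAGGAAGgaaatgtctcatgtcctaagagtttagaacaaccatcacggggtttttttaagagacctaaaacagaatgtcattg
Clec7a: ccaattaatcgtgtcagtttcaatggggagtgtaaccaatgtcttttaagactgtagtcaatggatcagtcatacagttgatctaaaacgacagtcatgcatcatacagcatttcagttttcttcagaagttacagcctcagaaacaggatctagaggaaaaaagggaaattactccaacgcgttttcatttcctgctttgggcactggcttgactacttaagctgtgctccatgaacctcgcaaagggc
In Clec5a the matches lie at -82 to -76 and -56 to -50, counting the base before the start as -1. In Mrc1 they lie at -168 to -162 and -36 to -30, in Clec4d at -241 to -235 and in Tlr13 at -83 to -77. Across the table, 9 of the 34 receptor genes held a match, against 12% of all genes (3244 of 27025). Among genes that rose with bleomycin in wild type lungs it was 4 of 13, and among those with a smaller rise in knockout lungs 4 of 8. All 4 of these 8 genes with a match are printed above, whereas Clec4a2, Clec4e and Tlr2, which held none, are not. The C/EBP-type sequence TTGCNNNAA was found in 2 of the 34 (9.36% of all genes), and the AP-1-type sequence TGANTCA in 5 (7.82% of all genes). In the same sets of 13 and 8 genes, the C/EBP-type sequence was found in 1 and 0, and the AP-1-type sequence in 0 and 0. These are matches of letters only and mark no measured binding.

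The values are RMA log2 intensities deposited by the authors, and each gene is represented by its brightest probe set over the 12 arrays. Array medians ranged from 5.58 to 5.68, and the 12 pairs of arrays within groups correlated at 0.988 to 0.997. Retnlb itself was dim in every group, with arrays from 3.49 to 4.13. After bleomycin, knockout minus wild type was -0.35 for Retnlb (limma, adjusted p = 0.0502), so these arrays give no clear check of the genotype labels. Lung epithelial markers such as Sftpc (group means of 14.08 to 14.22) were bright in all groups, but of the 6 genes in that list 3 fell in wild type lungs and 0 were called in knockout lungs by limma (0 also at an unadjusted p under 0.05). These 3 were Sftpa1 (-0.72), Foxj1 (-0.64) and Sftpb (-0.43), and their part in the receptors' changes was not tested. Falls were called in 14.4% of all genes in wild type and 1.29% in knockout lungs. Of the 42 receptor genes, 6 were dim, with no group mean reaching a log2 value of 5: Clec18a, Clec2g, Clec2h, Clec2l, Clec2m and Clec4f. None of these 6 was called in any comparison as fitted here on all arrays. Calls were made in a limma fit across all 18194 genes, at p-values that stayed under 0.05 after Benjamini-Hochberg adjustment, and rose, fell, higher and lower are used below of called genes. In whole lung, fewer cells of a type and less RNA per cell cannot be told apart.

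In wild type lungs, bleomycin raised 18 of the 42 receptor genes and lowered 5. Across all genes, 13.3% rose and 14.4% fell. The median change of the 42 was 0.17 on the log2 scale, against -0.04 over all genes. In knockout lungs 7 of the 42 rose and 1 fell, against 1.98% and 1.29% of all genes, and the median change was 0.09 against 0.01. The response itself, bleomycin minus saline, was lower in knockout than in wild type lungs for 10 of the 42 and higher for 1, against 3.0% and 2.03% of all genes. The median of that difference was -0.20 for the receptor genes and 0.04 for all genes. Single arrays weighed on these counts: without knockout bleomycin replicate 3, 5 genes were called in knockout lungs in place of 8, and without knockout saline replicate 1, 7 were called for the difference in place of 11. With quantile normalization repeated, 479 of 936 genes called for the difference were higher, against 369 of 914 as deposited, while the split of the receptor genes stayed at 1 higher and 10 lower.

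**Figure D1:**
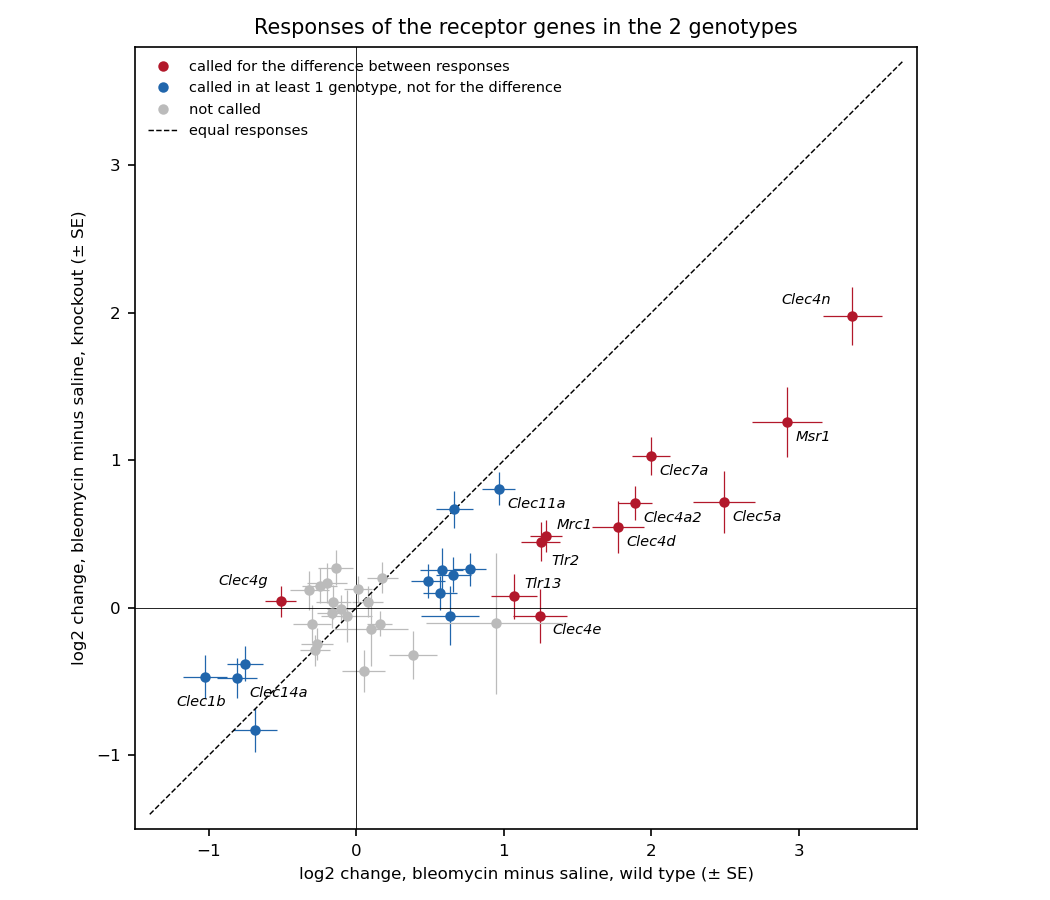
Log2 change with bleomycin of the 42 receptor genes in wild type lungs (horizontal axis) and in knockout lungs (vertical axis), with bars of 1 SE from the limma fit over 12 arrays. The 10 named red points on the right, from Tlr13 to Clec4n, lie below the dashed line of equal responses, and Clec4g lies above it.

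Among the scavenger and endocytic receptors, Msr1 and Mrc1 rose in both genotypes, and both rose less in knockout lungs. Marco, Cd163 and Siglec1 were not called with bleomycin in either genotype. Msr1 encodes scavenger receptor A, which takes up modified lipoproteins and polyanions. Its arrays read 5.12, 5.34 and 5.21 in wild type saline lungs, 8.49, 8.06 and 7.88 in wild type bleomycin lungs, 5.06, 5.13 and 5.26 in knockout saline lungs and 5.70, 6.85 and 6.68 in knockout bleomycin lungs. The saline groups overlapped, every bleomycin array lay above them, and every knockout bleomycin array lay below every wild type one. Msr1 rose 7.55-fold in wild type lungs (a log2 change of 2.92, with an SE of 0.24 that is given after ± from here on, n = 3 arrays in each group, limma adjusted p = 2.93e-06). In knockout lungs it rose 2.4-fold (1.26 ± 0.24, adjusted p = 0.0132), and that call was lost without knockout saline replicate 1 or 2 or knockout bleomycin replicate 2 or 3 (adjusted p = 0.055 to 0.0577). The difference between the responses was -1.66 ± 0.33 (adjusted p = 0.0157). Msr1 has 4 probe sets. In a fit of each probe set on its own, chosen after seeing the data, all 4 rose in wild type lungs, by 0.47 to 2.92. Of the same 4, 1 was called in knockout lungs and 2 were called for the difference.

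Mrc1, the macrophage mannose receptor, read 8.98, 9.05 and 8.95 in wild type saline, 10.53, 10.11 and 10.20 in wild type bleomycin, 9.08, 9.18 and 9.08 in knockout saline and 9.44, 9.64 and 9.73 in knockout bleomycin lungs. The arrays of the 4 groups did not overlap, and the order was wild type saline, knockout saline, knockout bleomycin, wild type bleomycin. It rose 2.44-fold in wild type lungs (1.29 ± 0.11, limma adjusted p = 3.58e-06) and 1.4-fold in knockout lungs (0.49 ± 0.11, adjusted p = 0.029). The knockout call was lost without any of the 3 knockout saline arrays or without knockout bleomycin replicate 2 or 3 (adjusted p = 0.0803 to 0.113). The difference between the responses was -0.80 ± 0.15 (adjusted p = 0.0125), and it was called with each array left out in turn.

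Marco, a scavenger receptor known from alveolar macrophages, had the widest spread within a group of the 42 genes. Wild type bleomycin lungs read 9.14, 7.31 and 6.60, a spread of 1.31 (SD), against 6.24, 7.33 and 6.63 in wild type saline, 6.58, 6.81 and 6.78 in knockout saline and 7.01, 6.31 and 6.53 in knockout bleomycin lungs. One wild type bleomycin array was thus the highest of all 12, the other two lay within the range of the saline arrays, and the change of 0.95 ± 0.48 was not called (adjusted p = 0.163). The call of Marco turned on single arrays: without wild type bleomycin replicate 3, the lowest of its group, the change was 1.49 (adjusted p = 0.025) and knockout minus wild type after bleomycin was -1.61 (0.0286), and with array weights the change was 0.92 (0.0417). Cd163, which takes up haemoglobin-haptoglobin complexes, read 6.09, 6.05 and 6.04 in wild type saline, 6.45, 6.00 and 5.89 in wild type bleomycin, 5.86, 6.24 and 5.77 in knockout saline and 5.57, 5.41 and 5.59 in knockout bleomycin lungs. Its knockout bleomycin arrays were below all others, and its change in knockout lungs, -0.43, was called only without wild type bleomycin replicate 1 (-0.43, adjusted p = 0.0484). Siglec1 (CD169), which binds sialylated ligands, read 5.35, 5.73 and 5.36 in wild type saline, 5.58, 5.15 and 5.11 in wild type bleomycin, 5.18, 5.36 and 5.20 in knockout saline and 5.49, 5.24 and 5.52 in knockout bleomycin lungs, and the groups overlapped. None of its 3 probe sets was called with bleomycin.

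The Dectin-2 group is a run of lectin receptor genes on chromosome 6, most of which signal through FcR-gamma, while some of the Clec4a genes code for receptors with an inhibitory motif. All 6 measured members rose in wild type lungs, with a median change of 1.51 (log2), against -0.04 over all genes. In knockout lungs 2 of the 6 rose, with a median of 0.40. The response was lower in knockout lungs for 4 of the 6. Of all genes, 13.3% rose in wild type and 1.98% in knockout lungs, and 3.0% had a lower response in knockout lungs.

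Clec4n (Dectin-2, a receptor for fungal mannans) had the largest change of the 42 genes in both genotypes. Its arrays read 6.93, 7.72 and 6.86 in wild type saline, 10.71, 10.41 and 10.49 in wild type bleomycin, 7.20, 7.35 and 7.30 in knockout saline and 8.93, 9.35 and 9.49 in knockout bleomycin lungs. The saline groups overlapped, and the knockout bleomycin arrays lay between saline and wild type bleomycin with no overlap. The rise was 10.3-fold in wild type lungs (3.36 ± 0.20, limma adjusted p = 3.83e-07) and 3.93-fold in knockout lungs (1.98 ± 0.20, adjusted p = 0.00032). The difference was -1.39 ± 0.28 (adjusted p = 0.0156). The probe set used may, by its suffix, share probes with transcripts of other genes. The second probe set, which has no such suffix, gave rises of 3.95 and 2.32 and a difference of -1.63 (adjusted p = 0.004255 over all probe sets).

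Clec4a2 (DCIR), an inhibitory receptor, read 6.42, 6.50 and 6.06 in wild type saline, 8.14, 8.17 and 8.34 in wild type bleomycin, 6.65, 6.45 and 6.55 in knockout saline and 7.12, 7.29 and 7.36 in knockout bleomycin lungs. Here too the knockout bleomycin arrays lay between the saline arrays and the wild type bleomycin arrays. It rose 3.71-fold in wild type lungs and 1.63-fold in knockout lungs (adjusted p = 4.61e-07 and 0.00633, limma), and the difference of -1.18 ± 0.16 had an adjusted p of 0.0032. Its dimmer probe set also rose in wild type lungs, by 0.62, and was not called for the difference.

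Clec4d (MCL) and Clec4e (Mincle, a receptor for mycobacterial glycolipid and for dead cells) pair with each other at the cell surface, and their arrays had another pattern. Clec4d read 5.47, 5.68 and 4.97 in wild type saline, 7.42, 6.96 and 7.06 in wild type bleomycin, 6.71, 6.33 and 6.82 in knockout saline and 7.04, 7.23 and 7.24 in knockout bleomycin lungs. Clec4e read 5.05, 5.31 and 5.15 in wild type saline, 6.77, 6.13 and 6.35 in wild type bleomycin, 5.95, 5.78 and 6.36 in knockout saline and 6.11, 5.67 and 6.16 in knockout bleomycin lungs. For both genes, knockout saline lungs already lay above every wild type saline array, and the bleomycin groups overlapped between genotypes. Clec4d rose 3.42-fold in wild type lungs (limma adjusted p = 1.5e-05), and its change in knockout lungs was 0.55 ± 0.18 (adjusted p = 0.119). Clec4e rose 2.37-fold in wild type lungs (adjusted p = 0.000249), and its change in knockout lungs was -0.05 ± 0.18 (adjusted p = 0.916). The differences between the responses were -1.22 ± 0.25 for Clec4d (adjusted p = 0.0172) and -1.30 ± 0.26 for Clec4e (adjusted p = 0.0145). That of Clec4d missed the threshold without knockout saline replicate 1 (adjusted p = 0.0504). Clec4e's second probe set, with a mean of 3.72, was not called. Clec4d's only probe set may, by its suffix, share probes with transcripts of other genes.

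The other members of the group rose by less. Clec4b1 rose by 0.58 ± 0.15 in wild type lungs (limma adjusted p = 0.00985) and changed by 0.26 in knockout lungs, where it was not called. Clec4a3 rose by 0.63 ± 0.20 (adjusted p = 0.03), from wild type saline arrays that spread from 6.90 to 8.01 and overlapped the bleomycin arrays. That call was lost without wild type saline replicate 1 or 3 or wild type bleomycin replicate 2 or 3 (adjusted p = 0.0756 to 0.107). Neither gene was called for the difference between the responses (-0.32 for Clec4b1 and -0.69 for Clec4a3). Clec4a3 passed for the difference without wild type saline replicate 2 (-0.99, adjusted p = 0.0106) and with array weights (-0.81, 0.018).

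**Figure D2:**
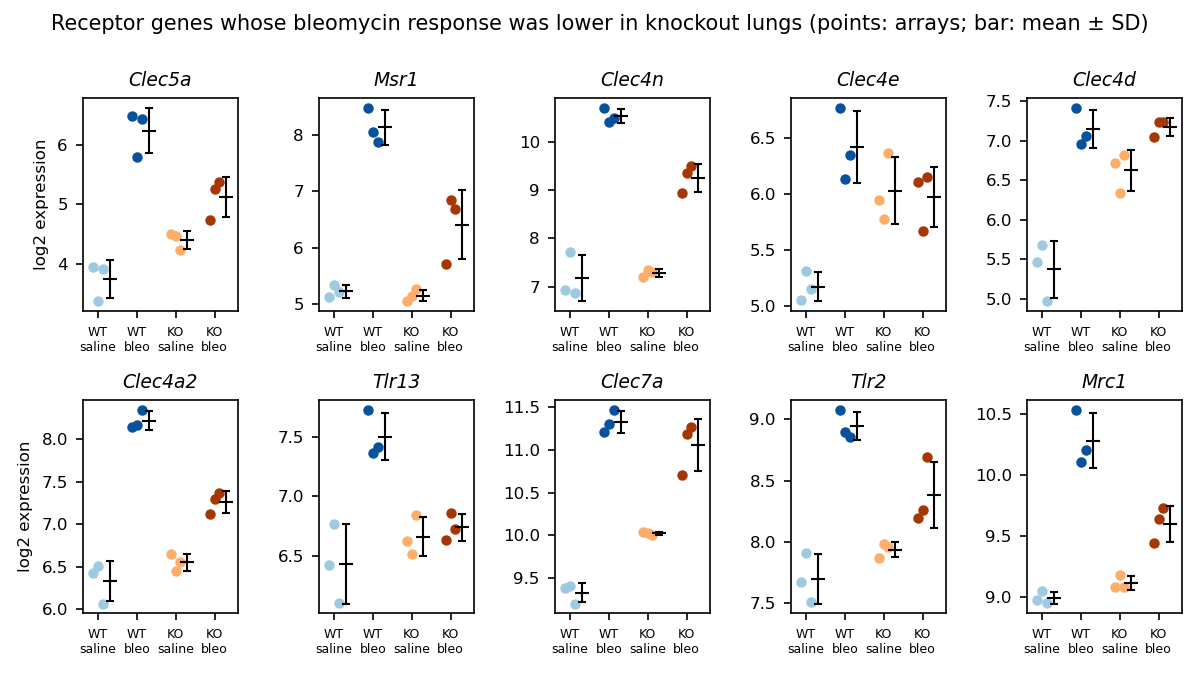
Log2 expression on each array (points) with the group mean ± SD (bars, n = 3) for the 10 receptor genes whose bleomycin response was lower in knockout lungs; the vertical scale differs between panels. In Msr1, Clec4n, Clec4a2 and Mrc1 the knockout bleomycin arrays lie below all wild type bleomycin arrays, whereas in Clec4d and Clec4e the bleomycin groups overlap and knockout saline lies above wild type saline.

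Clec7a and its chromosome neighbours moved in opposite directions. Clec7a is Dectin-1, the receptor for fungal beta-glucan with its own signalling motif, and its promoter is the last of those printed. Its arrays read 9.38, 9.41 and 9.20 in wild type saline, 11.21, 11.30 and 11.47 in wild type bleomycin, 10.04, 10.03 and 10.002 in knockout saline and 10.71, 11.18 and 11.27 in knockout bleomycin lungs. All knockout saline arrays exceeded all wild type saline arrays, and the bleomycin arrays of the genotypes overlapped. The rise was 3.99-fold in wild type lungs (1.996 ± 0.13, limma adjusted p = 7.15e-07) and 2.04-fold in knockout lungs (1.03 ± 0.13, adjusted p = 0.00136). The difference was -0.97 ± 0.18 (adjusted p = 0.0111).

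Clec1a, the next gene along, Clec1b and Clec12b all fell in wild type lungs. Clec1b (CLEC-2), the platelet receptor for podoplanin, read 7.48, 7.62 and 7.28 in wild type saline, 6.65, 6.35 and 6.30 in wild type bleomycin, 8.30, 7.84 and 8.07 in knockout saline and 7.84, 7.37 and 7.61 in knockout bleomycin lungs. Wild type bleomycin lungs were lowest and knockout saline lungs highest. The change was -1.02 ± 0.15 in wild type lungs (limma adjusted p = 0.000228) and -0.47 ± 0.15 in knockout lungs (adjusted p = 0.112).
Clec1a, known from endothelium, read 10.10, 10.05 and 9.93 in wild type saline, 9.02, 9.45 and 9.35 in wild type bleomycin, 10.17, 10.10 and 10.06 in knockout saline and 9.81, 9.89 and 9.50 in knockout bleomycin lungs. Every bleomycin array lay below every saline array, and the wild type bleomycin arrays were the lowest. It changed by -0.75 ± 0.12 in wild type (adjusted p = 0.000468) and -0.38 ± 0.12 in knockout lungs (adjusted p = 0.113). Clec12b, an inhibitory receptor whose locus in the RefSeq gene table overlaps that of Clec1b, read 6.07, 6.03 and 5.93 in wild type saline, 5.25, 5.63 and 5.07 in wild type bleomycin, 6.09, 6.12 and 6.26 in knockout saline and 5.49, 5.50 and 4.99 in knockout bleomycin lungs. The genotypes overlapped after bleomycin, and it fell in both, by 0.69 ± 0.15 in wild type (limma adjusted p = 0.00382) and by 0.83 ± 0.15 in knockout lungs (adjusted p = 0.0105). As fitted here on all arrays, it was the only receptor gene of the 42 that fell in knockout lungs. With array weights Clec14a (-0.50, adjusted p = 0.0246) and Clec1a (-0.40, 0.0369) fell there as well. Clec1b, Clec1a and Clec12b were not called for the difference between the responses (0.56, 0.38 and -0.14), but Clec1b passed with array weights (0.62, adjusted p = 0.0455).

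**Figure D3:**
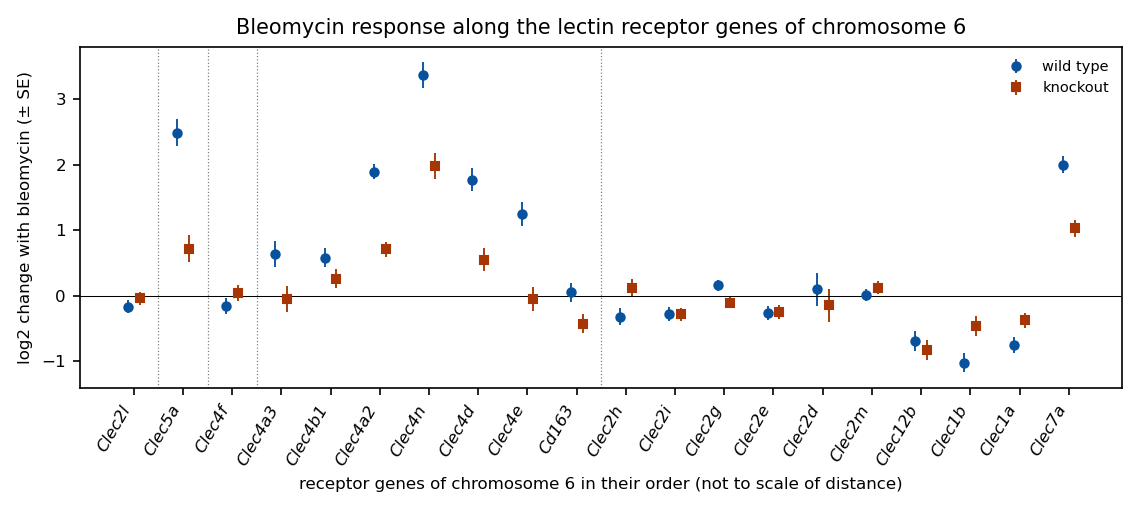
Log2 change with bleomycin (± SE) of the 20 receptor genes on chromosome 6, in chromosomal order and not to scale, in wild type (blue circles) and knockout lungs (red squares); dotted lines mark gaps between clusters. The run from Clec4a3 to Clec4e lies above 0 in wild type lungs, Clec12b, Clec1b and Clec1a lie below 0 in both genotypes, and Clec7a at the right end lies above.

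Of the 42 genes, 20 lie on chromosome 6. In the order of the RefSeq gene table, the Dectin-2 group runs from Clec4a3 through Clec4b1, Clec4a2, Clec4n and Clec4d to Clec4e with at most 1 gene between neighbours, and each of these rose in wild type lungs. Further along come the Clec2 genes, ligands of NK cell receptors, apart from Clec2l, which is the first of the 20, and then Clec12b, Clec1b, Clec1a and Clec7a, the last 2 with 0 genes between them. Of the NK receptor ligands, 0 of 6 measured members were called with bleomycin in wild type lungs and 0 of 6 in knockout lungs by limma. Of all genes, 13.3% rose and 14.4% fell in wild type lungs, and 1.98% and 1.29% in knockout lungs. The changes of the 6 ran from -0.32 to 0.16 in wild type lungs, and 3 of the 6 (Clec2g, Clec2h and Clec2l) were dim. Some passed in wild type lungs when 1 array was left out: Clec2h (-0.45 without wild type bleomycin replicate 2 and -0.46 without wild type saline replicate 3, adjusted p = 0.0258 and 0.0156), Clec2i (-0.39 without wild type bleomycin replicate 3, 0.0145) and Clec2g (0.24 without wild type saline replicate 2, 0.0321). With the mean of its probe sets, Clec2i passed in wild type (-0.237, adjusted p = 0.0381) and in knockout lungs (-0.325, 0.0437). In wild type lungs Clec2i also passed with the replicate number as a block (0.0343), and Clec2g and Clec2h with array weights (0.0134 and 0.0158). At an unadjusted p under 0.05 the count was 3 in wild type and 2 in knockout lungs.

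**Figure D4:**
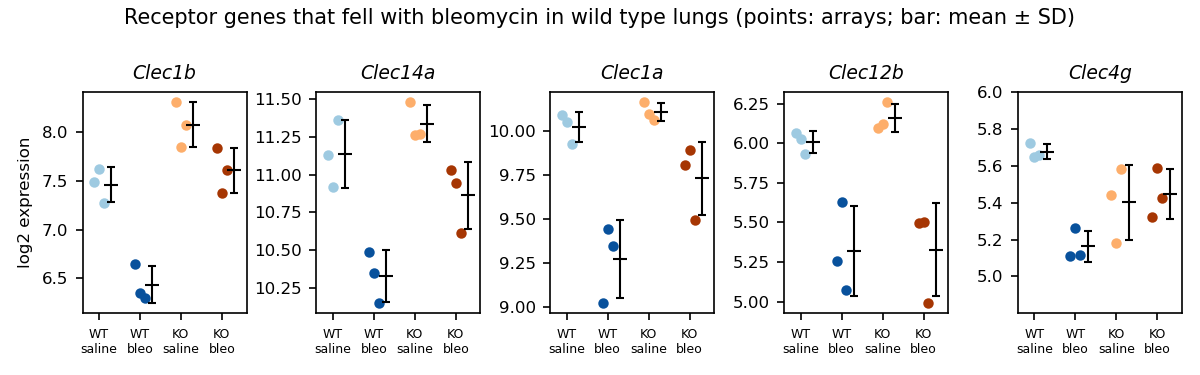
Log2 expression on each array (points) with the group mean ± SD (bars, n = 3) for the 5 receptor genes that fell with bleomycin in wild type lungs; the vertical scale differs between panels. In Clec1b, Clec14a and Clec1a the knockout bleomycin arrays lie above the wild type bleomycin arrays, and in Clec12b they overlap.

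Of the other type II lectins, Clec5a and Clec10a rose and Clec4g fell in wild type lungs, where 13.3% of all genes rose and 14.4% fell. In knockout lungs 0 of the 4 were called by limma, against 1.98% of all genes higher and 1.29% lower, and 2 had an unadjusted p under 0.05. Clec5a (MDL-1) is a DAP12-coupled receptor of monocytes and macrophages, and its promoter with 2 matches is the first of those printed. It read 3.95, 3.38 and 3.92 in wild type saline, 6.48, 5.80 and 6.43 in wild type bleomycin, 4.50, 4.48 and 4.23 in knockout saline and 4.73, 5.26 and 5.38 in knockout bleomycin lungs. No groups overlapped, and all saline arrays were under a log2 value of 5, so the change starts from a dim signal. The rise was 5.62-fold in wild type lungs (2.49 ± 0.21, limma adjusted p = 3.71e-06). In knockout lungs the change was 0.72 ± 0.21 (adjusted p = 0.0872), which passed without knockout bleomycin replicate 1 (0.0334), with array weights (0.0304) and with only the knockout groups in the fit (0.0475). The difference of -1.77 ± 0.30 was the largest of the 42 genes (adjusted p = 0.00698). Clec10a (MGL1), a galactose-binding receptor of macrophages and dendritic cells, rose by 0.77 ± 0.11 in wild type lungs (adjusted p = 0.000255) and changed by 0.26 ± 0.11 in knockout lungs (adjusted p = 0.241). The difference for Clec10a was -0.51 and passed only without knockout bleomycin replicate 3 (-0.65, adjusted p = 0.0159).

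Clec4g (LSECtin), known from sinusoidal endothelium, read 5.72, 5.65 and 5.66 in wild type saline, 5.11, 5.26 and 5.12 in wild type bleomycin, 5.44, 5.18 and 5.58 in knockout saline and 5.32, 5.59 and 5.42 in knockout bleomycin lungs. The wild type saline arrays lay above all others, and the wild type bleomycin arrays lay below knockout bleomycin but overlapped knockout saline. It fell by 0.51 ± 0.10 in wild type lungs (limma adjusted p = 0.00251), and its response was higher in knockout lungs by 0.56 ± 0.15 (adjusted p = 0.0477). This last call was lost when any 1 of 10 arrays was left out, all but wild type bleomycin replicate 2 and knockout saline replicate 3 (adjusted p = 0.063 to 0.0967), and its second, dimmer probe set changed by 0.06 in wild type lungs. The remaining gene of this group, the dim Clec4f, a receptor of Kupffer cells, was not called.

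Among the secreted, tetranectin-type and endothelial lectins and the rest, 1 of 6 rose and 1 fell in wild type lungs, against 13.3% and 14.4% of all genes. Clec11a (stem cell growth factor, also called osteolectin), a secreted lectin of stromal cells, read 7.03, 7.24 and 6.86 in wild type saline, 8.09, 7.82 and 8.11 in wild type bleomycin, 6.47, 6.51 and 6.40 in knockout saline and 7.18, 7.19 and 7.42 in knockout bleomycin lungs. Each knockout group lay below the wild type group of the same treatment, and bleomycin arrays lay above saline arrays within each genotype. It rose 1.95-fold in wild type and 1.75-fold in knockout lungs (limma adjusted p = 4.39e-05 and 0.0026), and the responses differed by -0.16 ± 0.16 (adjusted p = 0.604). Clec14a, a membrane protein of endothelial cells, read 11.13, 10.92 and 11.36 in wild type saline, 10.49, 10.35 and 10.15 in wild type bleomycin, 11.48, 11.27 and 11.27 in knockout saline and 11.03, 10.95 and 10.61 in knockout bleomycin lungs. Its wild type bleomycin arrays were the lowest, with no overlap with any other group. It fell by 0.81 ± 0.14 in wild type lungs (adjusted p = 0.000725) and changed by -0.48 ± 0.14 in knockout lungs (adjusted p = 0.0815). Clec3b (tetranectin, a plasminogen-binding protein), Clec16a and the dim Clec18a and Clec2m were not called with bleomycin in either genotype.

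Of the 5 surface Toll-like receptors, Tlr2, Tlr4 and Tlr6 rose in wild type lungs. In knockout lungs 0 of the 5 were called by limma, and 1 had an unadjusted p under 0.05. The share of all genes called there was 1.98% higher and 1.29% lower, and in wild type lungs it was 13.3% higher and 14.4% lower. Tlr2, which pairs with Tlr1 or Tlr6 to bind lipopeptides, read 7.67, 7.91 and 7.51 in wild type saline, 9.08, 8.90 and 8.86 in wild type bleomycin, 7.86, 7.98 and 7.96 in knockout saline and 8.19, 8.26 and 8.69 in knockout bleomycin lungs. The saline groups overlapped, and the knockout bleomycin arrays lay above them and below all wild type bleomycin arrays. It rose 2.38-fold in wild type lungs (1.25 ± 0.13, limma adjusted p = 2.06e-05), its change in knockout lungs was 0.45 ± 0.13 (adjusted p = 0.0883), and the difference was -0.80 ± 0.19 (adjusted p = 0.0299). The call of the difference was lost without any 1 of 8 arrays: wild type saline replicate 1 or 3, wild type bleomycin replicate 1, any knockout saline array, or knockout bleomycin replicate 1 or 2 (adjusted p = 0.0584 to 0.0766).

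Tlr4, the receptor for lipopolysaccharide, read 6.70, 6.78 and 6.68 in wild type saline, 6.99, 7.33 and 7.30 in wild type bleomycin, 6.71, 6.80 and 6.77 in knockout saline and 6.82, 6.79 and 7.20 in knockout bleomycin lungs. Bleomycin arrays lay above saline arrays in wild type lungs, and 2 of the 3 knockout bleomycin arrays lay close to saline. The rise was 0.49 ± 0.12 in wild type lungs (limma adjusted p = 0.00671) and the change 0.18 ± 0.12 in knockout lungs (adjusted p = 0.461), and the difference of -0.31 was not called. Without knockout bleomycin replicate 3, Tlr4 was lower in knockout than in wild type lungs after bleomycin (-0.40, adjusted p = 0.0251). Of its 4 probe sets, 3 rose in wild type lungs and the dimmest was not called. Tlr6 rose by 0.57 ± 0.12 in wild type lungs (adjusted p = 0.00254), from group means of 4.53 to 5.10, and changed by 0.10 in knockout lungs. Tlr1 (0.38 in wild type and -0.32 in knockout lungs) and Tlr5, the flagellin receptor (-0.30 and -0.11), were not called.

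Of the 6 endosomal or intracellular Toll-like receptors measured, Tlr13, Tlr8 and Tlr7 rose in wild type lungs, and Tlr8 also rose in knockout lungs. The share of all genes that rose was 13.3% in wild type and 1.98% in knockout lungs. Tlr13, which recognises bacterial ribosomal RNA, read 6.42, 6.77 and 6.11 in wild type saline, 7.73, 7.36 and 7.42 in wild type bleomycin, 6.62, 6.52 and 6.85 in knockout saline and 6.63, 6.86 and 6.72 in knockout bleomycin lungs. The wild type bleomycin arrays lay above all 9 others, and the knockout groups overlapped. It rose 2.1-fold in wild type lungs (1.07 ± 0.15, limma adjusted p = 0.000222) and changed by 0.08 ± 0.15 in knockout lungs (adjusted p = 0.848). The difference of -0.99 ± 0.22 (adjusted p = 0.0237) missed the threshold without wild type saline replicate 1, knockout saline replicate 1 or 3, or knockout bleomycin replicate 1 (adjusted p = 0.0517 to 0.0639).

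Tlr8, an endosomal receptor for RNA, rose in both genotypes, by 0.66 ± 0.12 in wild type (limma adjusted p = 0.00143) and 0.67 ± 0.12 in knockout lungs (adjusted p = 0.0124, or 0.0525 without knockout bleomycin replicate 3). The difference between these responses was 0.00 ± 0.17 (adjusted p = 0.995). Tlr7, its neighbour on the X chromosome and a receptor for single-stranded RNA, rose by 0.66 ± 0.12 in wild type lungs (adjusted p = 0.00113). That rise rests on 1 of its 3 probe sets. The other two were dim and not called, and with the mean of all 3 the change was 0.08 (adjusted p = 0.595). Tlr3, Tlr9 and Tlr12 were not called with bleomycin in either genotype. The second probe sets of Tlr3 and Tlr12, tested on their own, changed by 0.48 and -0.44 in wild type lungs (adjusted p = 0.01798 and 0.01584), while those used were not called (0.18 and 0.08). With the mean of its probe sets Tlr3 was called in wild type lungs (0.33, adjusted p = 0.0133).

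After saline alone, knockout and wild type lungs differed in 3 of the 42 genes, 2 higher and 1 lower, against 0.297% higher and 0.192% lower of all genes. Clec4d was higher in knockout lungs by 1.25 ± 0.18 (2.38-fold, limma adjusted p = 0.00733) and Clec7a by 0.69 ± 0.13 (1.62-fold, adjusted p = 0.0332). Clec11a was lower by 0.58 ± 0.11 (adjusted p = 0.042). In each of these 3 genes the saline arrays of the genotypes did not overlap. The calls rest on single arrays: 0 of the 42 genes were called without knockout saline replicate 3, and 1 was called without wild type saline replicate 1 or without knockout saline replicate 1 or 2. Clec4d missed the threshold without knockout saline replicate 3 (adjusted p = 0.0506), Clec7a without any of the 6 saline arrays or wild type bleomycin replicate 2 (0.0552 to 0.151), and Clec11a without any 1 of 8 arrays: every knockout saline array, wild type saline replicate 1 or 2, wild type bleomycin replicate 3, or knockout bleomycin replicate 1 or 2 (0.0517 to 0.158). Clec4e, the partner of Clec4d, was 0.86 ± 0.18 apart and was not called (adjusted p = 0.0664), except without wild type bleomycin replicate 1 (0.0305) and with array weights (0.00224). Clec4a3 passed after saline without wild type saline replicate 2 (0.81, adjusted p = 0.0225). In the same knockout saline lungs, 5 of 9 measured neutrophil markers exceeded their wild type saline level and none was lower, among them S100a8 (1.26, adjusted p = 0.0153) and S100a9 (1.37, adjusted p = 0.0325). The mean level of the neutrophil list was 7.20 to 7.36 in wild type saline and 7.85 to 8.42 in knockout saline arrays. Its part in the saline difference was not tested.

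After bleomycin, 9 of the 42 genes were lower in knockout than in wild type lungs and 5 were higher, against 7.89% and 7.52% of all genes. This comparison uses the same bleomycin arrays as the responses above. The 9 lower genes were Msr1 (-1.73 ± 0.24, limma adjusted p = 0.000472), Clec4n (-1.28, adjusted p = 0.00103), Clec5a (-1.11), Clec4a2 (-0.96), Tlr13 (-0.76), Clec11a (-0.74), Mrc1 (-0.68), Cd163 (-0.59) and Tlr2 (-0.56). Cd163 had been called with bleomycin in neither genotype. Its lower level in knockout bleomycin lungs (adjusted p = 0.0145) missed the threshold without wild type bleomycin replicate 1 or knockout bleomycin replicate 2 (0.0509 and 0.0556), and that of Tlr2 without knockout bleomycin replicate 1 (0.0581). Clec4d, Clec4e and Clec7a, whose responses were also lower, did not pass here (0.03, -0.44 and -0.28).

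The 5 genes higher in knockout bleomycin lungs included 3 that had fallen in wild type lungs: Clec1b (1.17 ± 0.15, limma adjusted p = 0.000285), Clec14a (0.53 ± 0.14, adjusted p = 0.0185) and Clec1a (0.46 ± 0.12, adjusted p = 0.0202). The others were Clec3b (0.54 ± 0.12, adjusted p = 0.00797) and Clec2i, a ligand of an NK cell receptor (0.43 ± 0.10, adjusted p = 0.0149). Clec3b arrays read 6.11, 6.07 and 6.36 in wild type and 6.83, 6.74 and 6.59 in knockout bleomycin lungs, against 6.38, 6.11 and 6.48 and 6.58, 6.46 and 6.30 after saline. Clec2i arrays read 4.52, 4.43 and 4.80 in wild type and 5.03, 4.91 and 5.09 in knockout bleomycin lungs, against 4.83, 4.78 and 4.98 and 5.42, 5.18 and 5.29 after saline. In Clec2i the knockout arrays thus lay above the wild type arrays after either treatment, and in Clec3b after bleomycin only, with overlap after saline. The call of Clec14a was lost without wild type bleomycin replicate 3 or knockout bleomycin replicate 1 or 2 (adjusted p = 0.0637 to 0.085). Clec1a lost its call without wild type bleomycin replicate 1 or knockout bleomycin replicate 1 or 2 (0.0794 to 0.0815), and Clec2i without wild type bleomycin replicate 1 or 2 or knockout bleomycin replicate 1 or 3 (0.0523 to 0.0562).

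Markers of the cells that carry these receptors moved in the same samples. Wild type lungs showed rises in 11 of 13 markers of macrophages and monocytes and no falls, against 13.3% and 14.4% of all genes. Of the 13, 6 rose in knockout lungs (1.98% of all genes) and 6 had a lower response there (3.0% of all genes). Examples are Cd68, a lysosomal protein of macrophages, with rises of 2.16 and 1.14, and Ctss, the lysosomal protease cathepsin S, with 1.44 and 0.85 (log2, wild type and knockout). The mean level of the list was 8.74 to 8.82 in wild type saline, 10.05 to 10.32 in wild type bleomycin, 8.96 to 9.02 in knockout saline and 9.37 to 9.84 in knockout bleomycin arrays. The groups followed the order seen for Mrc1. Lyz2 and Mertk, which also belong to the list, were not called in any comparison. The part of these markers in the receptors' changes was not tested. Other lists did not rise alike: of 8 alveolar macrophage markers 2 rose and 3 fell in wild type lungs, of 10 dendritic cell markers 2 rose and 3 fell, and of 9 neutrophil markers 1 rose and 5 fell. The shares of all genes in wild type lungs were 13.3% rising and 14.4% falling. Of 6 markers of liver sinusoids and Kupffer cells, 2 rose and 1 fell in wild type lungs. Their mean level was 6.93, 5.99 and 5.73 in the wild type bleomycin arrays against 5.54 to 5.86 in the knockout bleomycin arrays, and the array at 6.93, replicate 1, was also the one with the highest Marco, Msr1, Mrc1 and Cd163. Without it, 23 of the 42 receptor genes were called in wild type lungs, the same number as with it, and 9 in place of 11 for the difference between the responses. Kupffer cells are known to express Marco, Msr1, Cd163 and Clec4f. Of these, Clec4f was dim: it read 4.76 in wild type bleomycin replicate 1 and 4.76 to 5.27 over all arrays. The part of Kupffer cells in single genes was not tested.

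Beside the lectins that fell, 7 of 11 vascular endothelial markers fell in wild type lungs and none rose, with 3 falls in knockout lungs. Kdr, the VEGF receptor, changed by -0.88 in wild type and -0.41 in knockout lungs, whereas Pecam1 and Tie1 were not called. Of 5 platelet markers 3 fell in wild type lungs and 1 in knockout lungs, and of 9 NK and cytotoxic markers 9 fell in wild type lungs and 0 in knockout lungs by limma (8 with an unadjusted p under 0.05). Of 6 T cell markers 5 fell in wild type and 2 in knockout lungs, and of 7 B cell markers 4 fell in wild type and 0 in knockout lungs by limma (0 with an unadjusted p under 0.05). Of all genes, 14.4% fell in wild type and 1.29% in knockout lungs. The part of these marker lists in the falls of Clec1a, Clec14a and Clec1b was not tested.

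The signalling partners of the receptors changed in part. Of 27 measured genes of Toll-like receptor signalling, 9 rose and 1 fell in wild type lungs (median 0.09), 1 rose in knockout lungs, and 2 had a lower response in knockout lungs. The smallest adjusted p-values were those of Irf5 (0.83, adjusted p = 5.37e-05), Ly96, the MD-2 partner of Tlr4 (0.67, adjusted p = 8.4e-05), Ly86, the MD-1 partner of the Tlr4 homologue CD180 (1.22, adjusted p = 8.81e-05), and Unc93b1, which carries receptors to endosomes (0.56, adjusted p = 0.000362). Myd88 rose by 0.38, whereas Ticam1, Traf6 and Rela were not called. Of 13 measured genes of lectin receptor signalling, 5 rose in wild type lungs (median 0.26), 0 were called in knockout lungs by limma, and 3 had a lower response in knockout lungs. These 3 were the adaptors Fcer1g and Tyrobp and the kinase Prkcd. Fcer1g rose by 1.18 in wild type and changed by 0.28 in knockout lungs (difference -0.90, adjusted p = 0.00507), and Tyrobp by 1.12 and 0.28 (difference -0.84, adjusted p = 0.021). After saline, Fcer1g was higher in knockout lungs, by 0.50 (adjusted p = 0.0428). Syk, Plcg2 and the phosphatases Ptpn6, Ptpn11 and Inpp5d were not called in any comparison. In knockout lungs 3 of the 13 had an unadjusted p under 0.05. The share of all genes called in knockout lungs was 1.98% higher and 1.29% lower. In wild type lungs it was 13.3% higher and 14.4% lower, and 3.0% of all genes had a lower response in knockout lungs.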

How the data were processed

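Biotinylated cRNA made from lung total RNA had been hybridised to 12 Affymetrix arrays, 1 per sample, per the labels' protocols. The table holds log2 intensities summarised by RMA, which the authors deposited for 45101 probe sets with affy, RMA and limma in versions not given, per the submitters' processing notes. RMA quantile-normalises the arrays, which hides a shift common to most genes, and it pulls dim signals towards a floor, which makes folds from dim signals smaller. Detection calls were not used here.

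The annotation pairs 34958 probe sets with a single gene, 932 with several and 9211 with none. Only the first kind was used, and 34754 of them matched the RefSeq gene table by Entrez identifier. Each of 18194 genes was represented by its probe set of highest average signal on the 12 arrays; 16 of the 42 receptor genes have more than 1. All arrays entered 1 fit (limma 3.58.1, R 4.3.3) with a mean per group and eBayes without a trend, on 8 residual plus 4.86 prior degrees of freedom, tested on simulated data first. The 5 contrasts were adjusted by Benjamini-Hochberg over all genes. SE is from the fit and SD over the 3 arrays of a group. The number of arrays limits the precision. The members, gene lists and tests were chosen with earlier results of these data known. Values on every array are given for genes called for the difference or between genotypes, for the 8 largest called rises and all 5 called falls in wild type lungs (the rule took up to 6), and for Msr1, Marco, Cd163, Mrc1, Siglec1, Tlr2, Tlr4 and Clec7a. From the other lists, genes among the 4 of smallest p in wild type lungs or after saline were named, with members that define the list and did not pass; Myd88, Scara5, Cd207 and Sftpd were named after their values were seen. In up to 20 alternatives, 1 choice at a time was changed: genes with a mean under 5 left out, array centring, normalization, variance moderation, the probe set of a gene, the groups in the fit, array weights, a replicate block, and each array left out. Figures were drawn with matplotlib 3.10.9.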

Additional observations from a re-analysis of the deposited data

Results flagged for a closer look

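For 11 of the 42 receptor genes the response to bleomycin differed between the genotypes by the interaction term of the limma fit (knockout response minus wild type response, log2, 12 arrays). It was lower in knockout lungs for Clec5a (-1.77, adjusted p = 0.00698), Msr1 (-1.66, 0.0157), Clec4n (-1.39, 0.0156), Clec4e (-1.30, 0.0145) and Clec4d (-1.22, 0.0172). The same held for Clec4a2 (-1.18, 0.0032), Tlr13 (-0.99, 0.0237), Clec7a (-0.97, 0.0111), Tlr2 (-0.80, 0.0299) and Mrc1 (-0.80, 0.0125). For Clec4g it was higher (0.56, adjusted p = 0.0477). All knockout saline arrays lay above all wild type saline arrays in Clec4d, Clec4e, Clec7a, Clec5a and Mrc1. All knockout bleomycin arrays lay below all wild type bleomycin arrays in Msr1, Clec4n, Clec4a2, Tlr2, Tlr13, Clec5a and Mrc1, so Clec5a and Mrc1 show both. These genes were picked by a difference that uses the same arrays, and the share of all genes so separated was not counted. Receptor genes not called for the difference were separated in the same directions too. After saline these were Clec10a, Clec12b, Clec1b, Clec2i, Tlr1 and Tlr7, and after bleomycin Cd163, Clec11a, Clec2d, Clec2g, Clec4a3 and Tlr6.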

How the results depend on the processing

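In the 18 to 20 alternatives that gave a value for a call, 0 of the 59 calls described above changed sign, and 21 of 23 calls in wild type lungs, 5 of 8 in knockout lungs, 7 of 11 for the difference, 0 of 3 between genotypes after saline and 9 of 14 after bleomycin held in each that was run for them. With only the groups of the contrast in the fit there is no difference to test, and genes with a mean under 5 have no value where such genes were left out. With array weights, 13 receptor genes were called in knockout lungs in place of 8 and 10 between genotypes after saline in place of 3. Those gained in knockout lungs were Clec14a, Clec1a, Clec4d, Clec5a and Tlr2 (limma adjusted p = 0.0246, 0.0369, 0.0443, 0.0304 and 0.0242). For the difference, Clec1b, Clec2g, Clec4a3 and Tlr6 were gained with the same weights (0.0455, 0.0452, 0.018 and 0.0146). With only the groups of the contrast in the fit, 1 was called after saline. Leaving out 1 array at a time gave 22 to 24 calls in wild type lungs, 5 to 9 in knockout lungs, 7 to 11 for the difference, 0 to 4 after saline and 10 to 14 after bleomycin. Over all genes the alternatives gave 211 to 1286 calls in knockout lungs (594 reported), 380 to 1888 for the difference (914), 24 to 1105 after saline (89) and 1653 to 3138 between genotypes after bleomycin (2804). With the replicate number as a block the counts of receptor genes were 24, 7, 9, 2 and 14 in the same order of comparisons; Mrc1 in knockout lungs, Tlr2 and Clec4g for the difference and Clec11a after saline lost their calls (adjusted p = 0.0597, 0.0556, 0.0847 and 0.096). Same-numbered arrays of different groups deviated from their group means with correlations of -0.30 to 0.20, and differently numbered ones with -0.23 to 0.36. Whether same-numbered samples shared a batch or day cannot be told from this. Clec4g also lost its call for the difference with the mean of its probe sets (adjusted p = 0.0788) and with a trended, robust variance (0.0572), Clec11a after saline, Clec4d after saline, Clec4a3 in wild type and Clec1a after bleomycin with only the groups of the contrast in the fit (0.0763, 0.0517, 0.0886 and 0.0748). The causes were not tested. Signal near the floor limits the 6 dim genes, for which these arrays could show little.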

Other observations

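Scavenger receptors beyond those chosen by name changed in number as well. Of 18 other scavenger receptor genes, 12 rose and 1 fell in wild type lungs (limma, median 0.46 on the log2 scale), 4 rose in knockout lungs, and 4 had a lower response in knockout lungs. Of all genes, 13.3% rose and 14.4% fell in wild type lungs, 1.98% rose in knockout lungs, and 3.0% had a lower response there. Cd68 rose by 2.16 in wild type and 1.14 in knockout lungs. Scarb1, the receptor for high-density lipoprotein, rose by 1.24 in wild type lungs and changed by 0.39 in knockout lungs (difference -0.85, adjusted p = 0.00757). Cxcl16, a membrane-bound chemokine that binds oxidised lipoprotein, rose in both (0.94 and 0.64), as did Olr1, the lectin-like receptor for oxidised lipoprotein (1.74 and 0.88). Scara5, a ferritin receptor, was the one that fell (-0.72, adjusted p = 0.0153). Cd36, Mertk and Scarb2 were not called in any comparison.

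Of 30 lectins and sialic acid binding proteins under other symbols, 6 rose and 6 fell in wild type lungs (median -0.16), against 13.3% and 14.4% of all genes. In knockout lungs 3 rose and 1 fell, against 1.98% and 1.29% of all genes. Mgl2, a galactose-binding lectin next in kind to Clec10a, rose by 1.16 in wild type lungs and changed by 0.41 in knockout lungs (difference -0.75, adjusted p = 0.0268, limma). Lgals3 (galectin-3) rose in both genotypes, by 0.86 and 0.44. Asgr1, a subunit of the hepatocyte asialoglycoprotein receptor, fell in both (-2.18 and -1.36), from group means after saline of 5.39 in wild type and 5.52 in knockout lungs. Cd207 (langerin) was the only gene of the list with a higher response in knockout lungs (0.83, adjusted p = 0.0145). After bleomycin 8 of the 30 were higher and 1 was lower in knockout than in wild type lungs, against 7.52% and 7.89% of all genes. Among the higher ones were the surfactant collectins Sftpa1 (0.76) and Sftpd (0.34). Cd209b, Mbl1, Mbl2, Ly75 and Cd93 were not called in any comparison.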
